A study of Mus musculus with 18 samples.

Results

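The mitochondrial genome of the mouse holds 37 genes, and they are the subject here. They were taken as every gene whose GRCm38 symbol begins with mt-, which gave 37 of 43432 genes in the count tables. Of these, 13 encode proteins, 2 encode ribosomal RNAs and 22 encode transfer RNAs, with 28 on the plus strand and 9 on the minus strand. The rule reads the gene symbol alone, and it was set with earlier results of these data known.

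The genes were counted in RNA of sorted intestinal stem cells, which divide at the crypt base and renew the gut epithelium, from mice of 8 to 16 weeks. There were 5 libraries of Dlg1 conditional knock-out cells and 5 of wild-type cells collected 14 days after tamoxifen, and 4 libraries of each genotype collected 2 days after it. Mice of both genotypes and both times received tamoxifen, a drug commonly used to switch on an inducible Cre recombinase, and Dlg1 encodes a scaffold protein of epithelial cell polarity. The driver of the recombinase is not given in the labels, nor is whether each library came from its own animal, so the p-values measure the spread between these libraries, part of which may be technical. Each library was made from 5000 to 10000 cells after capture on poly(A) beads and SmartSeq amplification. At 2 days the knock-out columns are named Dmin, read here as Dlg1 minus, and each comparison that uses them rests on that reading.

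The mitochondrial genome is transcribed from both strands into long precursors, which are cut at the transfer RNAs into messenger, ribosomal and transfer RNAs. The messenger RNAs encode core subunits of respiratory complexes I, III and IV and of the ATP synthase, and the ribosomal RNAs build the ribosome that translates them. All other subunits, and every factor that copies, transcribes, processes and translates this genome, come from nuclear genes. Respiration through these complexes is known to matter for the renewal and differentiation of crypt cells.

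Sequencing depth was 11.1 to 15.7 M counts per library at 14 days and 14.8 to 40.5 M counts at 2 days. Markers of intestinal stem cells, such as Lgr5, were detected in every group, 10 of 10 with counts, at a summed 1880 to 3270 CPM (counts per M counts of the library) in knock-out and 2162 to 4172 CPM in wild-type libraries at 14 days. At 2 days the same sum was 4443 to 5703 CPM in knock-out and 3630 to 7198 CPM in wild-type libraries. Over the whole Dlg1 gene there were 41.3 to 73.9 CPM in knock-out and 50.2 to 97.4 CPM in wild-type libraries at 14 days, and 41.2 to 54.2 CPM in knock-out and 32.9 to 76.0 CPM in wild-type libraries at 2 days. These counts overlap between genotypes at both times through 1 library each, labelled wild-type 3 at 14 days (50.2 CPM) and wild-type 1 at 2 days (32.9 CPM), while the other wild-type libraries had 74.4 to 97.4 CPM at 14 days and 66.0 to 76.0 CPM at 2 days. Both named libraries had the highest mitochondrial share of their times, which by itself lowers the CPM of nuclear genes. With counts scaled for library make-up they were again the lowest wild-type ones, at 60.5 CPM and 48.3 CPM. Knock-out libraries then had 41.8 to 100.8 CPM at 14 days, a range that held every wild-type library (60.5 to 85.8 CPM). The top of that range was knock-out library 5, and the other knock-out libraries had 41.8 to 70.3 CPM. At 2 days knock-out libraries had 38.4 to 58.0 CPM, and wild-type 3 (56.3 CPM) also lay inside. Per M non-mitochondrial counts, wild-type 1 to 3 at 14 days (68.1 to 85.6) lay inside the knock-out range (50.2 to 89.0). At 2 days wild-type 1 (64.6) and 3 (89.3) did so. The libraries labelled wild-type 3 at 14 days and wild-type 1 at 2 days keep that name here, and results are given with and without them. The log2 fold change of Dlg1 was -0.17 ± 0.22 (SE) at 14 days and -0.38 ± 0.19 (SE) at 2 days, not called at either time (edgeR quasi-likelihood test, adjusted p = 0.957 and 0.866). Without those libraries it was -0.22 ± 0.22 (SE) at 14 days and -0.47 ± 0.17 (SE) at 2 days, again not called (edgeR, adjusted p = 0.732 and 0.875). They were picked for low Dlg1 counts, so their removal by itself moves this change down. How much of the gene the deletion removes is not given in the labels. Satellite-like gene models, repeats of the nuclear genome, took 47.0% of the counts of knock-out library 5 at 14 days and at most 10.1% elsewhere. In library 5 this by itself lowers the unscaled Dlg1 values.

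Several of these transcripts have ends that only an A tail completes, and the libraries were captured by that tail. Of the 13 protein-coding genes, 8 end in TAA and 2 in TAG, while 3 (mt-Co3, mt-Nd4 and mt-Cytb) end in a lone T that polyadenylation turns into a stop codon. The last 15 bases of 4 of them are shown from the GENCODE M21 transcripts of GRCm38, with the stop codon or its part in capitals. They lie at chrM:6858-6872, chrM:9376-9390, chrM:11530-11544 and chrM:15274-15288, all on the plus strand.
mt-Co1: gtaaaagtaaaaTAA
mt-Co3: attgatgaggatctT
mt-Nd4: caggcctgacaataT
mt-Cytb: taaaattatatccaT

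The genes are packed with almost no space between them. Of the 36 neighbouring pairs, 9 overlap, 12 abut and 15 lie apart, with a longest gap of 32 bases. The longest overlap is the 43 bases that end mt-Atp8 and begin mt-Atp6, which encode a pair of ATP synthase subunits in different reading frames. The whole of mt-Atp8 (chrM:7766-7969, plus strand, GRCm38) is shown because it had 0 counts in all 18 libraries, with the bases shared with mt-Atp6 in capitals.
mt-Atp8: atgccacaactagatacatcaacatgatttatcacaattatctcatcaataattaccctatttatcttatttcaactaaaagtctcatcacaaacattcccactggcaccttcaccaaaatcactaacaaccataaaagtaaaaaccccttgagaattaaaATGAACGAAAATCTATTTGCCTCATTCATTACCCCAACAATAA

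Within a tight genome, a read of a precursor or of an overlap can belong to more than 1 gene, and the strand setting of the counting is not given in the sources used here. Counts of overlapping genes such as mt-Nd5 and mt-Nd6, and of each transfer RNA beside a long gene, are uncertain to that extent.

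The sequence of part of this genome also sits in the nucleus. On chromosome 1, 7 annotated pseudogenes (Gm29216, Gm28661, Gm10925, Gm28437, Gm28438, Gm10222 and Gm28439) follow each other on the minus strand between chr1:24611535-24616197, in the order of a mitochondrial block of 4653 bases at chrM:6390-11042. They match mt-Co1, mt-Co2, mt-Atp6, mt-Co3, mt-Nd3, mt-Nd4l and mt-Nd4 over the aligned bases. Counted from 1 at the start of the mitochondrial gene, only 2 substitutions separate the aligned parts, A1066T in mt-Co1 against Gm29216 and T3C in mt-Nd3 against Gm28438. The differing base is in capitals in the lines that follow, which run from chrM:6373-6413 and chrM:9459-9481 on the plus strand, and from chr1:24616165-24616197 and chr1:24613097-24613119 on the minus strand.
mt-Co1: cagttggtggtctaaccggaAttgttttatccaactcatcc
Gm29216: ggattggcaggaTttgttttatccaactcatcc
mt-Nd3: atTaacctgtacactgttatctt
Gm28438: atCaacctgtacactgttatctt

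The aligned part of Gm29216 starts 3 bases before its substitution, so the bases to the left of that do not correspond. The spacing between the copies was also kept, except in the stretch between mt-Nd3 and mt-Nd4l, which holds mt-Tr. The gaps between successive copies on chromosome 1 were 140, 233, 2, 69, 74 and -4 bases, and those on the mitochondrial genome 140, 233, 2, 69, 73 and -4 bases, where a negative gap is an overlap. The stretch of 233 bases between mt-Co2 and mt-Atp6 holds mt-Tk and most of mt-Atp8, for which no separate copy is annotated.

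Most genes inside this block had hardly any counts. Of the 11 mt- genes that lie wholly inside it, 9 had at most 1 count in every library, against 3 of the 24 that lie wholly outside it (mt-Tw, mt-Ty and mt-Th). The 5 protein-coding genes with at most 1 count in any library were mt-Co2 and mt-Co3, subunits of cytochrome c oxidase, mt-Atp6 and mt-Atp8, subunits of the ATP synthase, and mt-Nd4l, a complex I subunit. In contrast, mt-Co1, the catalytic subunit of the same oxidase, had 1284071 to 4319024 counts per library at 2 days. A count of 0 allows 0.074 to 0.269 CPM across the libraries (3 counts of each total), and this limit covers counting error only.

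The protein-coding genes with at most 1 count were mostly those that share nearly all of their sequence with nuclear transcripts. The measure is the percentage of a gene's 50-base words that occur in a nuclear transcript of the annotation. It was 100% for mt-Co2, 99.9% for mt-Co3, 99.5% for mt-Atp6 and 98.8% for mt-Nd4l. The gene mt-Nd3, which carries the substitution T3C, shared 98.0% and had 21 to 89 counts at 14 days and 50 to 349 counts at 2 days. The partly copied mt-Nd4 (62.2%) and mt-Co1 (51.1%) were among the 9 genes of high level, and the other high genes shared at most 8.19%. The exception was mt-Atp8, which shared none and had no counts, in the stretch where the copy is not annotated as a gene. How reads that map to several places were treated is not given in the sources used here, and the part of the nuclear copies in these zeros was not tested.

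**Figure D1:**
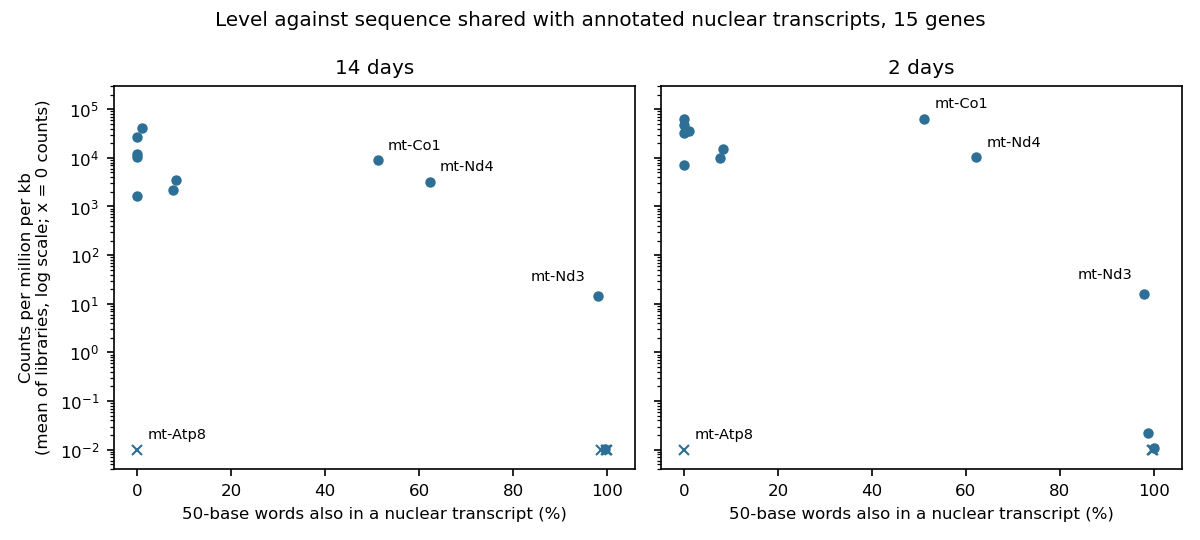
Each point is 1 of the 15 protein-coding and ribosomal RNA genes, with the percentage of its 50-base words also found in a nuclear transcript on the x axis and its level in CPM per kb on a log y axis, as the mean of the 10 libraries at 14 days (left) or the 8 at 2 days (right). Crosses are genes with 0 counts, and the 5 genes with at most 1 count in any library lie at 98.8% to 100% or, for mt-Atp8, at 0%.

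The chromosome 1 copies themselves held few counts. At 14 days Gm28661, the copy of mt-Co2, and Gm10925, the copy of mt-Atp6, each had 0 or 1 count per library, whereas at 2 days Gm28661 had 90 to 1160 and Gm10925 had 15 to 214 counts. Gm29216, which carries the substitution in mt-Co1, had 13 to 66 counts at 14 days and 68 to 325 counts at 2 days. The 15 annotated copies with counts in the tables, on every chromosome, took between 0.00176% and 0.0089% of a library's counts at 14 days, and between 0.0106% and 0.0254% at 2 days. The summed share of mitochondrial genes holds next to nothing from the 5 protein-coding genes with at most 1 count.

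Mitochondrially encoded genes took a large and variable share of all counts. At 14 days the share was 24.2%, 13.4%, 17.8%, 17.0% and 7.08% in knock-out libraries 1 to 5 and 9.6%, 6.21%, 26.3%, 11.6% and 7.91% in wild-type libraries 1 to 5. At 2 days it was 35.5%, 39.8%, 27.3% and 39.3% in knock-out libraries 1 to 4 and 49.1%, 31.7%, 26.1% and 30.3% in wild-type libraries 1 to 4. The genotypes overlapped at both times, and a single wild-type library was the highest of its table each time, library 3 at 14 days and library 1 at 2 days.

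**Figure D2:**
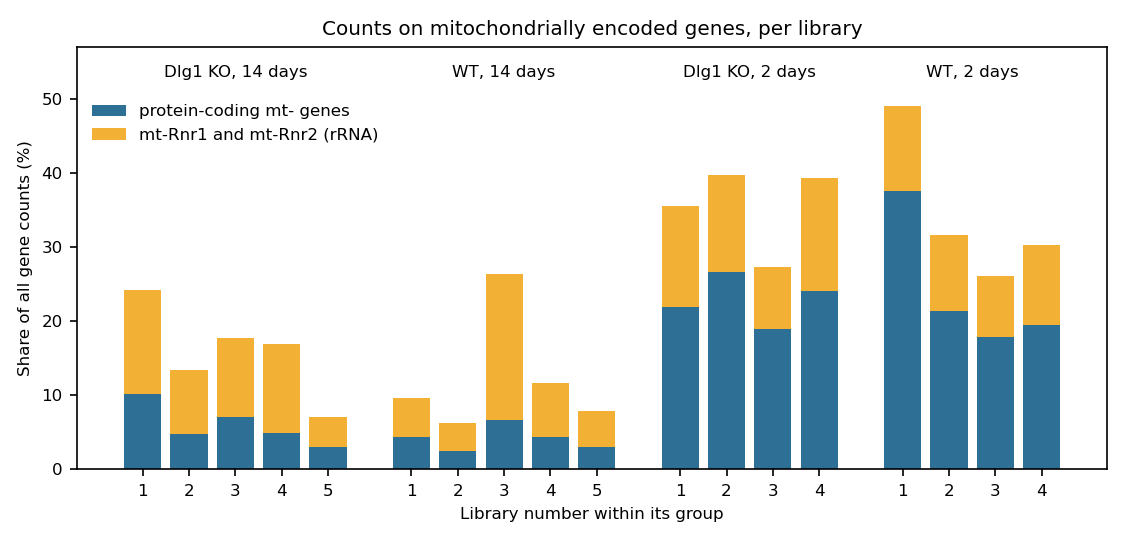
Bars give the percentage of all gene counts that fell on protein-coding (blue) and ribosomal RNA (yellow) mt- genes in each of the 18 libraries, by group. The share at 14 days lies between 6.21% and 26.3% and at 2 days between 26.1% and 49.1%, with most of it on ribosomal RNA at 14 days and on protein-coding genes at 2 days.

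The mean share at 14 days was 15.9 ± 6.28% for knock-out and 12.3 ± 8.07% for wild type (SD, n = 5 each), a difference of 3.56 percentage points. At 2 days it was 35.5 ± 5.77% for knock-out and 34.3 ± 10.1% for wild type (SD, n = 4 each), a difference of 1.18 percentage points. Both differences were smaller than the pooled SD, 7.23 points at 14 days and 8.25 points at 2 days. Leaving out the library labelled wild-type 3 moved the difference at 14 days to 7.05 points, and leaving out knock-out library 1 moved it to 1.48 points. Leaving out the library labelled wild-type 1 moved the difference at 2 days to 6.11 points, and leaving out knock-out library 2 or 4 or wild-type library 3 or 4 turned its sign (-0.10 to -1.55 points).

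Column names at 14 days carry a letter, B or J, whose meaning is not given. Among libraries lettered B the share was 24.2% and 13.4% in knock-out and 9.6% and 6.21% in wild-type libraries, without overlap. Among those lettered J it was 17.8%, 17.0% and 7.08% in knock-out and 26.3%, 11.6% and 7.91% in wild-type libraries, with overlap, and the mean was 13.9% in knock-out and 15.3% in wild-type. The higher mean in knock-out libraries thus held among B libraries and turned among J libraries. The satellite-like counts lower every other share of knock-out library 5. With these removed from the totals, its share became 13.4%, the group means were 17.2 ± 4.45% for knock-out and 12.7 ± 7.91% for wild type (SD, n = 5 each), and the means of the J libraries were 16.1% in knock-out and 15.8% in wild type.

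Libraries with a high share also differed in other values. At 2 days the library labelled wild-type 1 was the deepest, had counts on the fewest genes (16073), and held the least Malat1, a nuclear-retained RNA, at 617 CPM where the remaining 7 libraries of its table had 1148 to 1407. A high mitochondrial share by itself lowers the CPM of a nuclear RNA such as Malat1. At 14 days the library labelled wild-type 3 had a summed 12874 CPM of Paneth cell markers, against 3361 to 5069 in knock-out and 2295 to 4631 in the other wild-type libraries, and knock-out library 1 had 10648 CPM of goblet cell markers, against 1630 to 3707 in the rest of that table. The part of these, and of their low Dlg1 counts, in the shares was not tested. In bulk libraries, fewer cells of a type and less RNA per cell cannot be told apart.

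Among genes, the levels per length spanned several orders. At 2 days mt-Co1 (ENSMUSG00000064351, chrM:5328-6872) stood highest, at a level of 67381 ± 8083 CPM per kb in knock-out and 60243 ± 4702 in wild type (SD, n = 4 each). It was followed by mt-Rnr1 (ENSMUSG00000064337, chrM:70-1024), the small ribosomal RNA, at 65986 ± 15641 in knock-out and 57090.1 ± 14162 in wild-type libraries. Next were mt-Cytb (ENSMUSG00000064370, chrM:14145-15288), the cytochrome b of complex III, mt-Rnr2 (ENSMUSG00000064339, chrM:1094-2675), the large ribosomal RNA, and the complex I subunit mt-Nd1 (ENSMUSG00000064341, chrM:2751-3707). The complex I subunits mt-Nd2, mt-Nd4, mt-Nd5 and mt-Nd6 had lower levels, between 6265 and 17907 as group means.

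At 14 days the order was the same in both genotypes and led by the ribosomal RNAs. The large ribosomal RNA mt-Rnr2 had a level of 43962.5 ± 16252 CPM per kb in knock-out and 37566 ± 30753 in wild type (SD, n = 5 each). It was followed by mt-Rnr1, mt-Cytb, mt-Nd1, mt-Co1, mt-Nd2, mt-Nd4, mt-Nd5 and mt-Nd6, the last at 1838 ± 713 in knock-out and 1404 ± 842 in wild-type libraries. Neighbours in these orders were mostly closer than the larger of their SDs, in 5 of 8 pairs of the knock-out and 8 of 8 of the wild type at 2 days, and in 6 of 8 of the knock-out and 7 of 8 of the wild type at 14 days. The step from mt-Co1 down to mt-Nd2 exceeded that spread in both genotypes at 14 days.

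**Figure D3:**
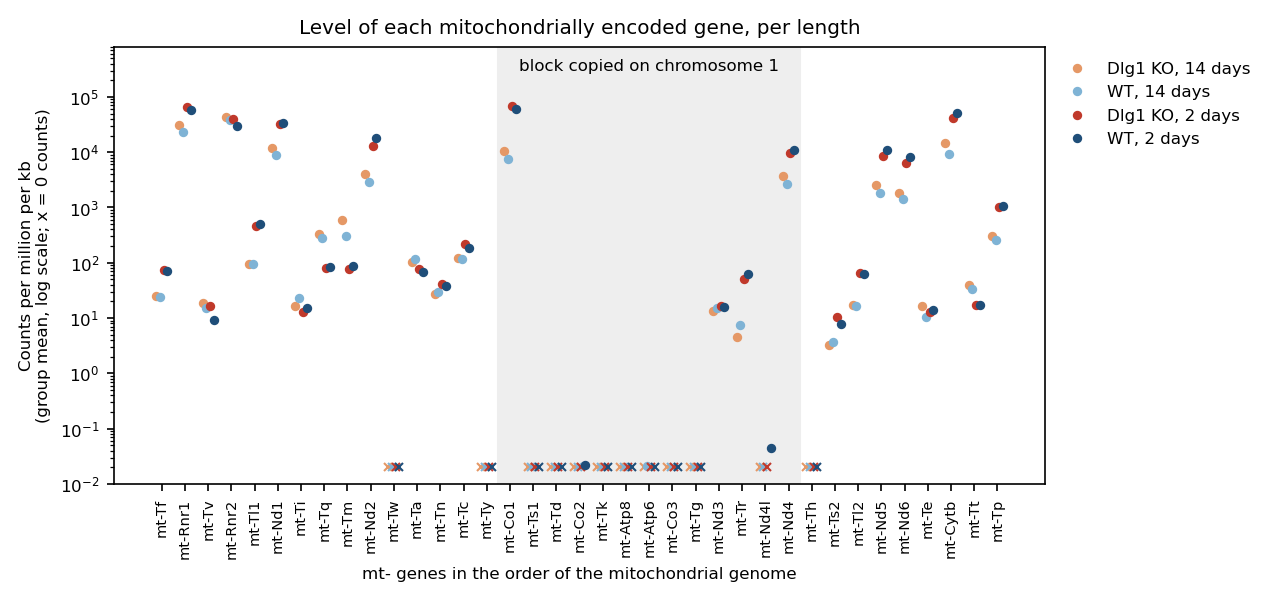
The 37 mt- genes are in the order of the mitochondrial genome on the x axis, with the mean level of each group in CPM per kb on a log y axis. Points are group means of 5 libraries at 14 days or 4 at 2 days, crosses mark groups with 0 counts, and the grey band marks genes wholly or partly inside the block copied on chromosome 1, where 9 of 11 wholly copied genes have at most 1 count.

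Transfer RNA genes, which are too short for standard libraries to cover well, held 0.0367% to 0.114% of the mitochondrial counts. Of the 22 genes, 7 had no count in any library, namely mt-Ts1, mt-Td, mt-Tk and mt-Tg inside the copied block and mt-Tw, mt-Ty and mt-Th outside it. The highest 3 at 2 days were mt-Tp (proline), mt-Tl1 (leucine) and mt-Tc (cysteine), with mt-Tp at a level of 1015 ± 164 CPM per kb in knock-out and 1068 ± 441 in wild type (SD, n = 4 each). At 14 days the highest were mt-Tm (methionine), mt-Tq (glutamine) and mt-Tp, with mt-Tm at 586 ± 486 in knock-out and 306 ± 250.0 in wild type (SD, n = 5 each). The sequences of mt-Tm (chrM:3845-3913, plus strand), mt-Tp (chrM:15356-15422, minus strand) and mt-Tl1 (chrM:2676-2750, plus strand) are shown as the most counted ones. That of mt-Tr (arginine, chrM:9808-9875, plus strand) is shown because it lies inside the copied block, has a run of 8 A in capitals and still had counts, 2 to 13 per library at 14 days and 46 to 333 at 2 days.
mt-Tm: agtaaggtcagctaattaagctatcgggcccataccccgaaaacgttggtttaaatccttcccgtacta
mt-Tp: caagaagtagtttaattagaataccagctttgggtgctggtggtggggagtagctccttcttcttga
mt-Tl1: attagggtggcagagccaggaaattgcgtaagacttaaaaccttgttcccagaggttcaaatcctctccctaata
mt-Tr: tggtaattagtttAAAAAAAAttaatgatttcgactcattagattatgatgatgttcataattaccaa

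The question of the series is what loss of Dlg1 changes in these cells. At 2 days no mt- gene passed the test between knock-out and wild type. Of the 37 genes, 25 had enough counts to be tested, 9 with a higher and 16 with a lower fitted level in knock-out, and their median log2 fold change was -0.24 beside 0.01 over all genes tested. None passed at an adjusted p under 0.05 (edgeR quasi-likelihood test, Benjamini-Hochberg adjustment, 13031 genes), where the background was 0% of genes, and none had an unadjusted p under 0.05, where the background was 4.91%. DESeq2 called 11 genes in all and no mt- gene among those named, though it gave no adjusted p for mt-Nd2. With the library labelled wild-type 1 left out, 24 of 24 tested mt- genes were higher in knock-out with a median log2 fold change of 0.44 beside 0.02 over all genes, 2 of them (mt-Nd1 and mt-Nd4) at an unadjusted p under 0.05 where the background was 5.52%, and 0 were called. The library left out had the highest mt- share of its table, so its removal by itself moves the changes of mt- genes up. In the full set no mt- gene had its knock-out and wild-type libraries apart without overlap, against 3.98% of all genes tested.

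CPM values of single libraries are from here on scaled by TMM, a factor per library that evens out its make-up, within the table of each time. Levels in CPM per kb are not scaled so and stay per M counts of the library. The ribosomal RNA mt-Rnr2 had 62244, 67824, 36868 and 84845 CPM in knock-out libraries 1 to 4 and 62844, 49441, 36266 and 48058 CPM in wild-type libraries 1 to 4, a log2 fold change of 0.36 ± 0.30 (SE). The complex III subunit mt-Cytb had 41864, 63694, 33562 and 52641 CPM in knock-out and 163146, 41288, 30334 and 38171 CPM in wild-type libraries, a log2 fold change of -0.51 ± 0.49 (SE). For mt-Cytb 3 wild-type libraries lay within or below the range of the knock-out, and library 1 lay far above it.

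The complex I subunit mt-Nd2 had 10276, 19505, 9888 and 13693 CPM in knock-out and 60732, 10671, 7955 and 11227 CPM in wild-type libraries, a log2 fold change of -0.76 ± 0.57 (SE). This was the lowest of the fitted changes at 2 days, and again 1 wild-type library stood above all others. The oxidase subunit mt-Co1 had 101154, 120200, 75027 and 118506 CPM in knock-out and 138814, 96370, 73901 and 80820 CPM in wild-type libraries, a log2 fold change of 0.09 ± 0.29 (SE). The library labelled wild-type 1 was also the highest of the table, though by less than for mt-Cytb.

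The remaining complex I subunits had log2 fold changes of -0.24 (mt-Nd1), -0.37 (mt-Nd4), -0.58 (mt-Nd5), -0.58 (mt-Nd6) and -0.09 (mt-Nd3), and mt-Rnr1 had 0.08. For the transfer RNAs the changes were -0.26 for mt-Tp, -0.29 for mt-Tl1 and 0.10 for mt-Tc, and adjusted p over the 13 mt- genes named ranged from 0.866 to 0.976 (edgeR). Without the library labelled wild-type 1, the log2 fold changes turned positive, to 0.47 for mt-Nd1, 0.42 for mt-Nd2, 0.49 for mt-Nd4, 0.35 for mt-Nd5, 0.25 for mt-Nd6 and 0.38 for mt-Cytb. The direction of these complex I and III messenger RNAs at 2 days therefore rests on that library.

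At 14 days no mt- gene passed the test either, and most fitted levels were higher in knock-out. Of the 22 genes tested, 18 were higher and 4 lower, with a median log2 fold change of 0.44 beside 0.01 over all 13991 genes tested. None passed at an adjusted p under 0.05 (edgeR), where the background was again 0%, and none had an unadjusted p under 0.05, where the background was 3.99%. DESeq2 called 1 gene in all. With the library labelled wild-type 3 left out, 21 of 22 were higher in knock-out with a median log2 fold change of 0.996 beside 0.01 over all genes, 14 of them at an unadjusted p under 0.05 where the background was 12.2%, and 0 were called (lowest adjusted p = 0.193, edgeR). Here too the library left out had the highest mt- share of its table, so its removal by itself moves the changes of mt- genes up. In the full set no mt- gene had its groups apart without overlap, against 0.529% of all genes tested.

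The largest fitted difference of a messenger RNA was that of mt-Cytb. It had 37732, 11303, 20559, 11281 and 11860 CPM in knock-out libraries 1 to 5 and 9805, 5070, 21893, 8848 and 6462 CPM in wild-type libraries 1 to 5, a log2 fold change of 0.83 ± 0.46 (SE). All knock-out libraries lay above 4 of the 5 wild-type libraries, and the library labelled wild-type 3 lay above all of the knock-out but library 1. For mt-Co1 the values were 34459, 10940, 18655, 10887 and 14351 CPM in knock-out and 12457, 5252, 19796, 10675 and 6968 CPM in wild-type libraries, a log2 fold change of 0.70 ± 0.42 (SE).

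The complex I subunit mt-Nd2 had 5817, 3002, 5611, 4400 and 3356 CPM in knock-out and 2036, 1611, 5464, 3284 and 2031 CPM in wild-type libraries, a log2 fold change of 0.62 ± 0.34 (SE). The large ribosomal RNA mt-Rnr2 had 111339, 54817, 75510, 81410 and 47275 CPM in knock-out and 32206, 21482, 174637, 47038 and 30856 CPM in wild-type libraries, a log2 fold change of 0.27 ± 0.55 (SE). For mt-Rnr2 every knock-out library lay above 4 wild-type libraries and below the library labelled wild-type 3, whereas for mt-Nd2 the libraries labelled wild-type 3 and 4 lay inside the knock-out range.

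The subunits mt-Nd4, mt-Nd1, mt-Nd5 and mt-Nd6 had log2 fold changes of 0.64, 0.62, 0.61 and 0.47, mt-Rnr1 had 0.45 ± 0.52 (SE), and mt-Nd3 had -0.0078. The transfer RNA mt-Tm had a log2 fold change of 1.02 ± 0.59 (SE), with 113 CPM in knock-out library 1 and 17.0 to 31.3 in the other knock-out libraries, against 62.4 CPM in the library labelled wild-type 3 and 8.51 to 13.9 in the other wild-type libraries. The changes of mt-Tp and mt-Tq were 0.43 and 0.31, and that of mt-Tq was -0.0092 without knock-out library 1. Adjusted p of the named mt- genes was at least 0.957 (edgeR). Without the library labelled wild-type 3 the changes were larger, such as 1.30 for mt-Cytb, 1.17 for mt-Rnr2 and 1.29 for mt-Rnr1, and 0 genes were called. With the letter of the column name as a term, chosen after seeing the data, the changes were 0.82 for mt-Cytb, 0.68 for mt-Co1 and 0.69 for mt-Nd2, none called.

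**Figure D4:**
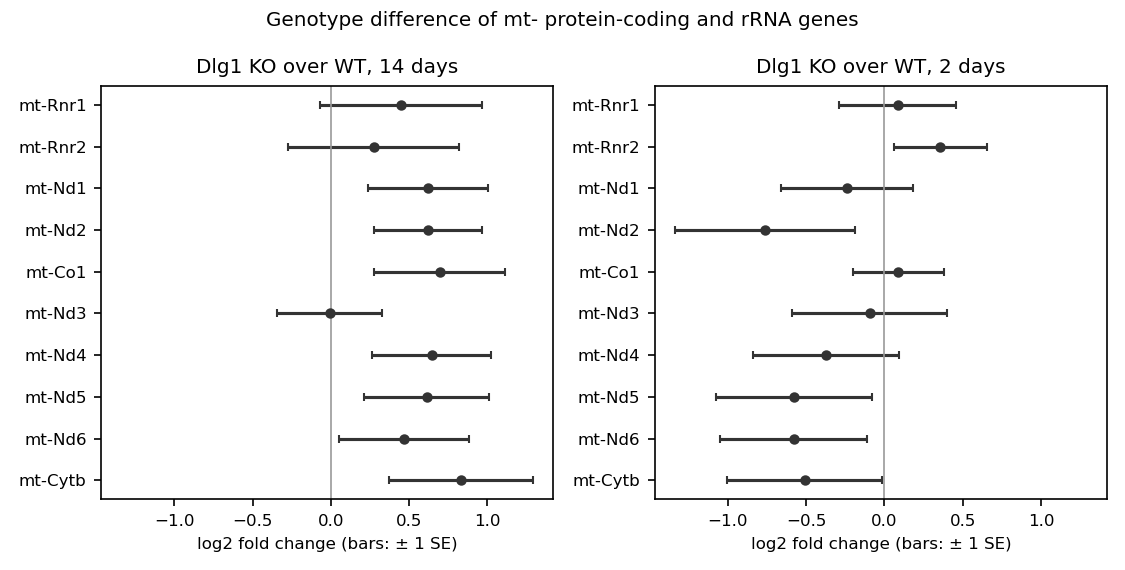
Points are log2 fold changes of Dlg1 knock-out over wild type from edgeR at 14 days (left, 5 libraries each) and 2 days (right, 4 libraries each) for the 10 protein-coding and ribosomal RNA genes tested, and bars are 1 standard error on each side. At 14 days 9 of the 10 are above 0 and at 2 days 3 of the 10, and no gene was called at either time.

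Whether the genotype difference itself changed between the times was tested over all 18 libraries. None of the 24 mt- genes tested passed in this contrast (edgeR, 15458 genes, background 0%), and none had an unadjusted p under 0.05, where the background was 5.96%. The fitted differences of log2 fold changes, 14 days minus 2 days, were 1.37 ± 0.70 (SE) for mt-Nd2, with adjusted p = 0.823, and 1.33 ± 0.73 (SE) for mt-Cytb, with adjusted p = 0.838. Without the libraries labelled wild-type 3 at 14 days and wild-type 1 at 2 days they were 0.58 for mt-Nd2 and 0.93 for mt-Cytb, 0 genes were called, and 1 mt- gene (mt-Nd6, 0.87) had an unadjusted p under 0.05, where the background was 6.53%. DESeq2 called 11 genes in all in this contrast.

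Nuclear genes that encode the partner subunits had mostly higher fitted levels in knock-out at both times, without passing the test. These lists, and the factor lists that follow, were chosen with earlier results of these data known. At 2 days 63 of 77 tested subunits of the respiratory chain and ATP synthase were higher in knock-out, 25 of them at an unadjusted p under 0.05 and 0 called, with a median log2 fold change of 0.28. Over all genes at 2 days 6647 of 13031 were higher, with a median of 0.01, and 4.91% had an unadjusted p under 0.05. At 14 days 70 of 77 were higher, 5 of them at an unadjusted p under 0.05 and 0 called, with a median of 0.38. Over all genes at 14 days 7133 of 13991 were higher, with a median of 0.01, and 3.99% had an unadjusted p under 0.05, so the count of 5 was near the background. The count was 58 of 77 without the library labelled wild-type 3, where the background was 12.2%, and without the library labelled wild-type 1 at 2 days it was 42 of 77 where the background was 5.52%, with 0 called in both. Enterocyte markers, which belong to differentiated cells, were higher in 10 of 10 at 2 days, where the median log2 fold change was 1.38 with 0 called, and lower in 9 of 10 at 14 days, with a median of -0.36 and 0 called. Goblet cell markers were higher in 7 of 7 at both times, with a median of 0.65 at 14 days and 0.46 at 2 days and 0 called. The part of either list in the subunit and mt- values was not tested.

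Factors of mitochondrial gene expression were spread to both sides. At 2 days 35 of 71 were higher and 36 lower in knock-out, and at 14 days 38 of 72 were higher and 34 lower, with none called. Polrmt, the mitochondrial RNA polymerase, had log2 fold changes of -0.11 at 14 days and 0.17 at 2 days. Tfam, which packages the genome and starts its transcription, had 0.29 at 14 days and -0.17 at 2 days. Lrpprc, which stabilises mitochondrial messenger RNAs, had 0.0036 at 14 days and -0.30 at 2 days, and Ppargc1a, a coactivator of mitochondrial biogenesis, had 0.04 at 14 days and 0.36 at 2 days. The smallest p values at 2 days were those of Hsd17b10, a subunit of mitochondrial ribonuclease P, at 0.51 ± 0.19 (SE), and of Mtif2, a translation initiation factor, at -0.36 ± 0.15 (SE), both with adjusted p = 0.866 (edgeR). At 14 days they were those of Ptcd2, an RNA-binding protein linked to cytochrome b messenger RNA, at 0.42 ± 0.20 (SE), and of Fastkd1, a mitochondrial RNA-binding protein, at 0.29 ± 0.15 (SE), both with adjusted p = 0.957 (edgeR).

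The larger contrast in these data was between the tables. Wild-type libraries at 14 days held a mean mitochondrial share of 12.3 ± 8.07% (SD, n = 5), against 34.3 ± 10.1% at 2 days (SD, n = 4), a difference of -22.0 percentage points. Each time is a separate table that may also differ in run, mice and read handling, as the counts of satellite models and chromosome 1 copies do, so time cannot be told apart from table. Of the 24 mt- genes tested, 13 were called lower and 0 higher at 14 days (edgeR, adjusted p under 0.05), where 53.4% of all 15458 genes were called, 25.7% lower and 27.7% higher. At an unadjusted p under 0.05 it was 14 lower and 0 higher, where the background was 58.6%. Their median log2 fold change was -1.95 beside 0.12 over all genes. For 12 of the 24 every wild-type library at 14 days lay below every one at 2 days, and 43% of all genes had no overlap in either direction. Without the libraries labelled wild-type 3 at 14 days and wild-type 1 at 2 days, 16 of 24 were called lower and 2 higher, where 52.2% of all genes were called, and the same 16 lower and 2 higher counts held at an unadjusted p under 0.05, where the background was 57.3%. Cell type markers differed between the tables too, with 7 of 10 stem cell markers called lower at 14 days (median log2 fold change -1.17) and 6 of 7 goblet cell markers called higher (median 1.79), and their part in these values was not tested.

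The 7 messenger RNAs of high level fell at 14 days, while mt-Nd3 had -0.72 and was not called (adjusted p = 0.164, edgeR). Levels of mt-Co1 were 4162 to 10615 CPM per kb at 14 days and 56092 to 66479.7 at 2 days, without overlap, a log2 fold change of -3.57 ± 0.43 (SE) and adjusted p = 5.49e-07 (edgeR). The complex I subunits mt-Nd2, mt-Nd5, mt-Nd6, mt-Nd4 and mt-Nd1 fell as well, with log2 fold changes of -3.40, -3.28, -3.16, -2.68 and -2.56, and so did mt-Cytb with -3.14, all called. Without the library labelled wild-type 1 at 2 days the change of mt-Nd2 was -2.21, still called.

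The ribosomal RNAs differed from each other. Their levels per kb are not scaled by TMM, whereas the fold changes are. The small one, mt-Rnr1, fell by 1.80 on the log2 scale (adjusted p = 0.00477, edgeR), with levels of 12056 to 54933 CPM per kb at 14 days and 42187 to 75916 at 2 days. The large one, mt-Rnr2, had levels of 16626 to 91457 at 14 days (mean 37566) and 26883 to 33309 at 2 days (mean 30117). Its log2 fold change, from scaled counts, was -0.10 ± 0.48 (SE) and not called (adjusted p = 0.874, edgeR). Its value depended on the library labelled wild-type 3 at 14 days, without which it was -1.01 and called (adjusted p = 0.0146, edgeR), and without that and wild-type 1 at 2 days it was -0.88 and called (adjusted p = 0.026, edgeR). It was 0.01 with upper-quartile scaling, which shifted the median of all genes by 0.13.

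Transfer RNAs did not move as 1 group. The genes called lower were mt-Tr (-3.88), mt-Tl1 (-3.11), mt-Tp (-2.74), mt-Tl2 (-2.57) and mt-Tf (-2.10), given as log2 fold changes. The fitted values of mt-Tm (1.13 ± 0.68, SE) and mt-Tq (1.11 ± 0.55, SE) were positive and not called (adjusted p = 0.167 and 0.0919, edgeR), as was the negative one of mt-Tc (-1.14, adjusted p = 0.0835). These calls depended on single libraries and on the tool. Without the library labelled wild-type 1 at 2 days mt-Tm was 2.33 and mt-Tq 1.83, both called, and without the library labelled wild-type 3 at 14 days they were 0.22 and 0.20, not called, while mt-Tc was -2.31 and called. Without both libraries all 3 were called, at 1.41, 0.91 and -1.85. DESeq2 called mt-Tq (1.18, adjusted p = 0.0414), limma voom called mt-Tc (-1.82, adjusted p = 0.00298), and with no filter on low counts all 3 were called.

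The make-up of the mitochondrial counts differed between the tables in both genotypes. Ribosomal RNA made up 62.3 ± 5.73% of mitochondrial counts in knock-out and 63.0 ± 7.40% in wild type at 14 days (SD, n = 5 each), and 35.2 ± 4.05% in knock-out and 30.8 ± 5.17% in wild type at 2 days (SD, n = 4 each). The share of mt-Rnr2 alone was 44.0 ± 4.19% in knock-out and 45.4 ± 6.0% in wild-type libraries at 14 days, and 17.6 ± 2.33% in knock-out and 14.8 ± 4.04% in wild-type libraries at 2 days. That of mt-Co1 was 10.3 ± 2.45% in knock-out and 10.4 ± 3.13% in wild-type libraries at 14 days, and 29.5 ± 1.48% in knock-out and 28.5 ± 6.41% in wild-type libraries at 2 days. All libraries at 14 days had more ribosomal RNA than protein-coding counts, and all at 2 days had less. These are shares of counts after capture on poly(A) beads, and the part of that capture in them was not tested.

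Ratios between single genes need no scaling of libraries, and 3 were compared in 3 contrasts, 9 tests in all with Benjamini-Hochberg adjustment. The ratio of mt-Rnr2 to mt-Co1 counts was 2.59 to 8.82 in wild-type libraries at 14 days and 0.453 to 0.595 at 2 days, a log2 difference of 3.14 (two-sided exact permutation p = 0.0159, the smallest this design allows, adjusted p = 0.0714). The ratio of mt-Rnr1 to mt-Rnr2 was 0.36 to 0.438 at 14 days and 0.946 to 1.69 at 2 days, a log2 difference of -1.53 (exact permutation p = 0.0159, adjusted p = 0.0714). Neither passed after adjustment, although in both the times did not overlap in any of the 9 wild-type libraries. Both stood at the smallest p of the design, so beside the other tests a larger difference could not have lowered the adjusted p.

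None of the ratios passed a test between genotypes. The smallest p that the exact permutation test allows there is 0.00794 at 14 days and 0.0286 at 2 days, before adjustment. At 2 days even that p would not have passed after adjustment beside the other results, so the test could not decide there. The ratio of mt-Rnr2 to mt-Co1 differed by -0.03 on the log2 scale between knock-out and wild type at 14 days (exact permutation p = 0.905) and by 0.21 at 2 days (exact permutation p = 0.2). That of mt-Rnr1 to mt-Rnr2 differed by 0.09 at 14 days (exact permutation p = 0.23) and by -0.16 at 2 days (exact permutation p = 0.657). The remaining ratio was that of mt-Nd6 to mt-Nd5. The former is the only protein-coding gene on the minus strand, and the latter ends on the opposite strand at the same place. The strand setting of the counting is not given, so reads over mt-Nd6 may come from either strand. This ratio therefore cannot be read as a balance between the transcripts of the 2 strands. It was 0.159 to 0.255 in knock-out and 0.164 to 0.256 in wild-type libraries at 14 days, and 0.193 to 0.216 in knock-out and 0.197 to 0.225 in wild-type libraries at 2 days. Its log2 differences were -0.03 between genotypes at 14 days (exact permutation p = 0.77), -0.07 between genotypes at 2 days (exact permutation p = 0.257) and -0.02 between the times in wild type (exact permutation p = 0.857), the smallest difference between the times among the 3 ratios.

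**Figure D5:**
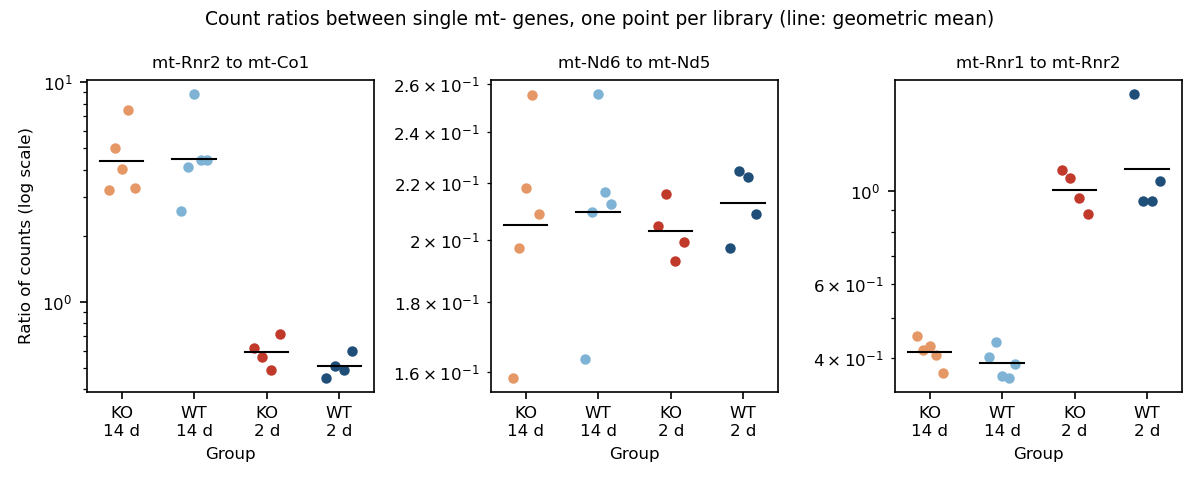
Points are count ratios of single libraries on log y axes for mt-Rnr2 to mt-Co1, mt-Nd6 to mt-Nd5 and mt-Rnr1 to mt-Rnr2, by group, and lines are geometric means. The first ratio is 2.59 to 8.82 and the third 0.36 to 0.438 in wild type at 14 days, against 0.453 to 0.595 and 0.946 to 1.69 in wild type at 2 days, and the second overlaps between all groups.

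Nuclear partners of the respiratory chain were mostly called higher between the tables. Of 77 tested nuclear subunits of the respiratory chain and ATP synthase, 68 were called higher and 1 lower in wild type at 14 days, with a median log2 fold change of 1.73, beside backgrounds of 27.7% higher and 25.7% lower. Their summed share of counts was 1.13% to 3.64% over all libraries at 14 days and 0.642% to 1.26% at 2 days. The 1.13% was that of knock-out library 5, of whose counts 47.0% were satellite-like, and the other libraries at 14 days had 2.15% to 3.64%. The larger mitochondrial share at 2 days by itself lowers the share of nuclear genes there. Among 72 factors of mitochondrial gene expression and biogenesis 23 were called higher and 14 lower. Gabpa, a subunit of a transcription factor of nuclear respiratory genes, fell by 2.48 on the log2 scale, and Tsfm, a mitochondrial translation elongation factor, rose by 2.12. Lrpprc fell by 0.60, and Tfam had -0.07 (adjusted p = 0.821, edgeR). Polrmt rose by 0.74 (adjusted p = 0.0328), a call lost without the library labelled wild-type 1 at 2 days (0.48) or without that labelled wild-type 3 or 4 at 14 days (0.71 each), and Ppargc1a fell by 0.49 (adjusted p = 0.0372), a call lost with RLE (-0.44) or upper-quartile scaling (-0.36), without the filter (-0.49), with DESeq2 (-0.44) and without any 1 of 5 libraries. Those were the ones labelled wild-type 3 (-0.43) and 4 (-0.38) at 14 days and wild-type 1 (-0.40), 2 (-0.47) and 3 (-0.51) at 2 days.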

How the data were processed

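The authors deposited raw gene counts as whole numbers, in 1 table for each time with 1 column per library, not normalized. The submitters' processing notes name bcl2fastq 2.20.0.422, STAR 2.4.2a and GRCm38; the annotation, the counter, its strand setting and its handling of multiply mapped reads stay unstated there and in the labels. Libraries are numbered by their place in the table.

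Members and lists were chosen with earlier results of these data known. GENCODE M21 gave symbols to 42462 of 43432 identifiers, as well as positions and sequences. Shared sequence was found with blastn 2.17.0 (at least 90% identity over 100 bases) and exact words of 50 bases.

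Each time was fitted alone with edgeR 4.0.16 (filterByExpr minimum count 10, TMM, quasi-likelihood F-test, Benjamini-Hochberg over all genes tested), and contrasts across times in 1 fit of all 18 libraries. Standard errors are the absolute log2 fold change over the root of F. The test was checked on simulated counts. Count ratios used a pseudocount of 0.5 and exact permutation. The genes named were the protein-coding and ribosomal RNA members, the 3 most counted transfer RNAs per table, Polrmt, Tfam, Lrpprc, Ppargc1a and the 2 factors of smallest p per comparison; other members are given as counts or were named after their values were seen. Alternatives were other scalings, filters, DESeq2 1.42.0, limma voom 3.58.1 and leaving out libraries. Amplified copies were not marked by molecular identifiers, so counting limits cover counting error only.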

Additional observations from a re-analysis of the deposited data

Results flagged for a closer look

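In groups of 4 or 5 libraries, a library was marked when its gap to the nearest other was large against the range of its group by Dixon's criterion. Of 76 groups of values checked, 23 were marked, where chance alone marks about 1 in 20 and values of the same library are not independent of each other.

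At 2 days most marks fell on the library labelled wild-type 1. It had 163146 CPM of mt-Cytb, 78484 of mt-Nd1, 60732 of mt-Nd2, 40824 of mt-Nd4, 57456 of mt-Nd5 and 11338 of mt-Nd6, each above the other wild-type libraries by a wide gap. The same held for the transfer RNAs mt-Tl1 at 80.5 CPM and mt-Tp at 169 CPM, and for its ratio of mt-Rnr1 to mt-Rnr2 counts, 1.69 against 0.946 to 1.06. Knock-out library 3 stood low for mt-Rnr1, at 35388 CPM against 69837 to 74590 in the other knock-out libraries.

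At 14 days most marks fell on the library labelled wild-type 3. Its mitochondrial share was 26.3% against 6.21% to 11.6% in the others, with 21893 CPM of mt-Cytb, 7392 of mt-Nd4, 6969 of mt-Nd5, 1782 of mt-Nd6, 63322 of mt-Rnr1 and 174637 of mt-Rnr2. Its transfer RNAs mt-Tc, mt-Tm and mt-Tq were high at 26.3, 62.4 and 58.3 CPM. Knock-out library 1 stood high for mt-Tm, mt-Tp and mt-Tq at 113, 35.1 and 44.7 CPM.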

How the results depend on the processing

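Counts of called genes moved with the tool and filter. At 2 days no gene was called, against 7 without a filter, 11 with DESeq2 and 2 in 1 fit of all 18 libraries, and leaving out single libraries gave 0 to 1. At 14 days no gene was called, against 2 without a filter and 1 with DESeq2. In the contrast of genotype effects no gene was called, against 98 without a filter and 11 with DESeq2, with 0 to 1 when single libraries were left out. None of the settings that gave a named mt- gene an adjusted p moved it past the threshold in a genotype comparison, and DESeq2 gave none for mt-Nd2 at 2 days and mt-Tq at 14 days.

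These log2 fold changes turned direction with a setting. At 2 days mt-Nd1 became 0.013 with voom. At 14 days mt-Nd3 became 0.0041 when library sizes left out mt- genes and 0.067 with voom, Ppargc1a became -0.024 without a filter, and Lrpprc became -0.0034 (RLE), -0.0073 (upper quartile), -0.012 (no satellite models), -0.064 (no filter), -0.0040 (DESeq2) and -0.017 (1 fit). Between times in wild type mt-Rnr2 became 0.0097 and Tfam 0.081 with upper-quartile factors, and Tfam 0.029 with voom. For the genotype difference between times, mt-Rnr2 became 0.30 with voom, and mt-Tc became 0.030 (RLE), 0.0079 (no mt- genes), 0.00097 (no satellite models), 0.00043 (minimum count 50), 0.016 (DESeq2) and 0.63 (voom). Without the libraries labelled wild-type 3 at 14 days and wild-type 1 at 2 days, chosen after seeing the data, Tfam became 0.25 between times, and for the genotype difference between times mt-Rnr2 became 0.69, mt-Nd3 -0.31 and mt-Tc 0.72. The cause was not tested.

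Leaving out single libraries turned directions too, and the lowest and highest log2 fold changes so reached are given for each gene that turned. Between genotypes at 2 days they were -0.11 to 0.52 for mt-Rnr1, -0.45 to 0.47 for mt-Nd1, -1.05 to 0.42 for mt-Nd2, -0.030 to 0.30 for mt-Co1, -0.34 to 0.52 for mt-Nd3, -0.60 to 0.49 for mt-Nd4, -0.84 to 0.35 for mt-Nd5, -0.83 to 0.25 for mt-Nd6, -0.76 to 0.38 for mt-Cytb, -0.45 to 0.39 for mt-Tp, -0.49 to 0.24 for mt-Tl1, -0.12 to 0.57 for mt-Tc, -0.086 to 0.31 for Polrmt and -0.37 to 0.19 for Tfam. At 14 days they were -0.19 to 0.20 for mt-Nd3, -0.0092 to 1.21 for mt-Tq, -0.29 to 0.03 for Polrmt, -0.053 to 0.032 for Lrpprc and -0.068 to 0.14 for Ppargc1a. Between times in wild type they were -1.01 to 0.13 for mt-Rnr2 and -0.26 to 0.29 for Tfam. For the genotype difference between times they were -0.078 to 1.20 for mt-Rnr1, -0.30 to 0.81 for mt-Rnr2, -0.54 to 0.32 for mt-Nd3, -0.46 to 1.17 for mt-Tc and -0.10 to 1.52 for mt-Tq. For log2 count ratios they were -0.23 to 0.21 for mt-Rnr2 to mt-Co1 (genotypes, 14 days), -0.12 to 0.063 for mt-Nd6 to mt-Nd5 (genotypes, 14 days), -0.095 to 0.066 for mt-Nd6 to mt-Nd5 (wild type, between times) and -0.25 to 0.032 for mt-Rnr1 to mt-Rnr2 (genotypes, 2 days).

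Leaving out single libraries gave differences in mitochondrial share of -1.55 to 6.11 points between genotypes at 2 days, 1.48 to 7.05 at 14 days and -25.4 to -17.0 between times in wild type. No paired analysis was possible because the labels do not pair knock-out with wild-type libraries. The column names also carry no replicate number of the labels.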

Other observations

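At 2 days, the annotated nuclear copies with the most counts were not those of the chromosome 1 block. Gm13340 on chromosome 2, a full-length copy of mt-Co1 with 97.6% identity, had 80 to 416 counts per library at 14 days and 891 to 4119 at 2 days. Its neighbour Gm13341, a copy of mt-Co2 with 95.9% identity, had 126 to 605 counts at 14 days and 185 to 1919 at 2 days, while mt-Co2 itself had at most 1.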
